A study of Macaca mulatta with 24 samples.

Results

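Lowly methylated stretches of the genome with few measured CpGs were examined in omental (visceral) white adipose tissue (WAT) of rhesus macaques. The genome was cut into tiles of 1 kb, and the mean methylation of a tile was taken over its CpGs after each CpG had been averaged over all animals. A tile was included when it lay on chromosomes 1 to 20, held 3 to 9 measured CpGs and had a mean level of at least 10% and under 35%. This left 4638 tiles with 22995 CpGs, out of 74472 autosomal tiles with 3 to 9 CpGs and 163687 tiles with any CpG. The lowest included tile stood at 10.01% and the highest at 34.997%, while the nearest tiles outside the limits stood at 9.971% and 35.008%. The level chose the tiles, so it is given as a description only.

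The animals were 24 females, listed as 4 years old, that carried an implant for 3 years before the biopsy. The paper gives a higher approximate age at the biopsy than these labels. Implants held testosterone, used to mimic hyperandrogenemia, or cholesterol as the control. The western-style diet (WSD) was rich in fat, and the control diet was chow. With 6 animals in each, the groups were cholesterol with chow (C), testosterone with chow (T), cholesterol with WSD (WSD) and testosterone with WSD (T+WSD). DNA came from whole tissue, a mixture of adipocytes, vessel cells, mesothelium, immune cells and stroma, so a changed share of a cell type and changed methylation within cells cannot be told apart. The labels number the animals in a block for each group, 1 to 6 for C, 7 to 12 for T+WSD, 13 to 18 for T and 19 to 24 for WSD, and name no batch. If the numbers followed the handling of the samples, no comparison between groups could be told apart from it.

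DNA methylation in mammals is found mainly at CpGs, most of which are highly methylated outside CpG islands. Short stretches of lower methylation in CpG-poor sequence are often sites bound by transcription factors, such as enhancers, and their methylation tends to differ between cell types. Intermediate values in a tissue can come from a mixture of methylated and unmethylated cells, from the parental alleles, or from a border between a methylated and an unmethylated stretch.

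Reduced-representation bisulfite sequencing reads only fragments near MspI sites, so few measured CpGs in a tile does not mean that the tile is poor in CpGs. The measured CpGs of a tile spanned a median of 74 bp, and neighbouring CpGs lay a median of 18 bp apart. In 53.0% of the tiles the span was at most 75 bp, and in 25.2% it was over 200 bp. Tiles with 3 CpGs were the most frequent, with 1369 tiles (29.5%), and tiles with 9 CpGs the least frequent, with 278. No chromatin marks were used here, so the label enhancer-like could be checked only against the methylation of the tiles and their surroundings.

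Low levels were uncommon among tiles with few CpGs. The included tiles made up 5.81% of autosomal tiles with 3 CpGs and 7.69% of those with 8 CpGs, the lowest and the highest share over the numbers of CpGs. Tiles under 10% numbered 8910, tiles from 35% to under 65% numbered 8197, tiles from 65% to under 90% numbered 27350, and tiles at 90% or more numbered 25377. Across chromosomes the share of included tiles ran from 4.11% on chromosome 17, with 73 of 1776 tiles, to 8.69% on chromosome 19, with 448 of 5158 tiles. The median level was 22.4%, with quartiles at 15.9% and 29.0%.

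The tiles were of several kinds inside. In 2026 tiles (43.7%), each CpG had a mean from 10% to under 50%, and in 1686 (36.4%) CpGs under 10% stood beside CpGs from 10% to under 50%. A further 619 tiles (13.3%) held at least 1 CpG under 10% and at least 1 at 50% or more, so that a low mean arose from CpGs at opposite ends of the scale. In the remaining 307 tiles (6.62%), CpGs at 50% or more stood beside CpGs from 10% to under 50%. In 166 tiles no CpG lay between 10% and 50%. These 4 kinds were defined after the values had been seen. In the tiles with CpGs at both ends, the largest step between neighbouring CpGs had a median of 53.1 percentage points, and that step spanned a median of 60 bp, against 17 bp for the other neighbouring pairs of the same tiles.

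The most even tiles with at least 7 CpGs were nearly flat. At chr4:36225115-36225181 (build rheMac8), the means of 8 CpGs over 67 bp lay between 12.5% and 13.3%. At chr3:57910590-57910658, 9 CpGs over 69 bp lay between 25.9% and 27.7%. At chr1:67829126-67829194, 8 CpGs over 69 bp lay between 22.6% and 25.5%. The animals nevertheless differed in the level of the tile. At chr4:36225115-36225181, C animals ranged from 1.83% to 27.5% with a median of 8.65%, and T+WSD animals from 12.3% to 29.9% with a median of 24.5%. The difference of 10.97 points did not pass the test there (limma, adjusted p = 0.238), and the groups overlapped.

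The least even tiles were borders between methylated and unmethylated CpGs. At chr18:67184520-67184681, the CpG at position 67184520 had a mean of 95.5%, the next at 67184540 had 18.8%, the CpG at 67184554 had 97.5%, and the 4 CpGs from 67184636 to 67184681 lay between 0.0788% and 1.19%. At chr11:67553340-67553630 the 9 CpGs ran from 0.183% to 96.5%, and the next tile downstream stood at 0.485%. At chr1:22487389-22487978 the 8 CpGs ran from 0% to 95.2%, and the next tile downstream stood at 0.781%. The means of these 3 tiles were 30.7%, 34.1% and 32.4%.

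**Figure D1:**
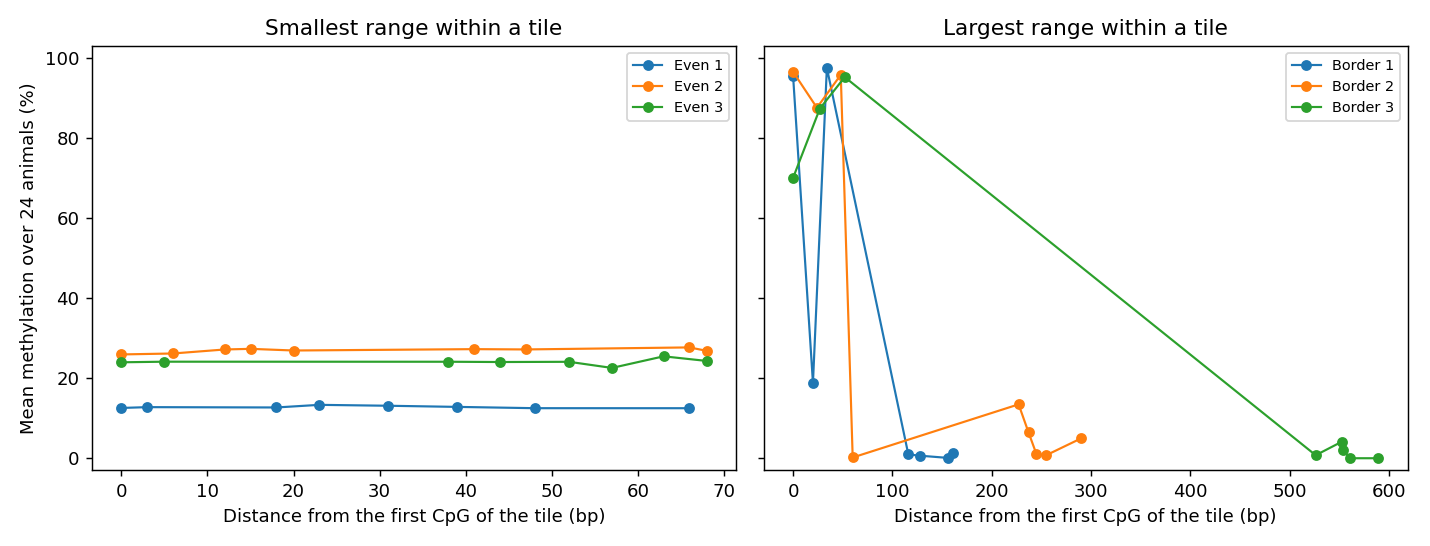
Mean methylation of each CpG over 24 animals (vertical axis, %) against its distance from the first CpG of the tile (horizontal axis, bp). Even 1 to 3 are the tiles on chromosomes 4, 3 and 1 with the smallest range, 0.842, 1.75 and 2.90 points, and Border 1 to 3 the tiles on chromosomes 18, 11 and 1 with the largest range, 97.4, 96.3 and 95.2 points; lines join the CpGs of a tile.

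The surroundings were examined next, since a low tile may be the edge of an unmethylated CpG island. A tile with at least 20 CpGs and a level under 10%, taken as a stand-in for such an island, lay within 2 tiles of 6.66% of the included tiles and within 5 tiles of 9.66%. For 66.5% no such tile lay within 50 kb. Side by side, and without a test, the share within 2 tiles was 16.04% for tiles under 10%, 2.49% for tiles from 35% to under 65% and 0.925% for tiles from 65% to under 90%. It was 12.2% for the 1735 autosomal tiles at 10% to under 35% with 10 or more measured CpGs, hereafter CpG-rich low tiles. That name refers to measured CpGs only, which spanned a median of 432 bp in these tiles, and not to CpG density of the sequence.

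A measured tile within 5 kb was present on both sides of 1416 included tiles, and the mean of the flanks had a median of 46.8%. The included tile was lower than both flanks in 46.3% of these and higher than both in 14.97%. Both flanks were at 65% or more in 18.7%, the pattern of a local valley in methylated DNA, and both were under 35% in 22.7%. Most of these 1416 tiles were thus no valley between highly methylated neighbours. Another included tile lay in the next tile for 7.01% and within 5 tiles for 15.3%. Without a test, the share lower than both flanks was 51.8% for tiles under 10% and 48.3% for tiles from 35% to under 65%. It was 25.1% for tiles from 65% to under 90%, 33.3% for CpG-rich low tiles and 31.9% over all tiles.

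CpGs close to each other deviated together between animals. After group means were removed, CpGs of an included tile 2 to 50 bp apart had a median correlation of 0.529 over 17272 pairs in 3105 tiles, and 91.8% of the pairs were positive. Pairs at least 200 bp apart had a median of 0.101 over 2862 pairs in 485 tiles. Without a test, the medians for close and distant pairs were 0.514 and 0.106 in tiles from 35% to under 65%. In tiles from 65% to under 90% they were 0.215 and 0.0382. These are correlations over the 24 animals within each pair, close pairs often lie on the same sequenced fragment, and pairs of a tile are not independent. Of the CpGs, 8 of 22995 (0.0348%) took values near 0%, 50% and 100% over a wide range, as a sequence variant at the CpG would give, beside 0.0137% in tiles under 10%, 0.155% in CpG-rich low tiles and 0.595% over all tiles with at least 3 CpGs. A tile mean under 35% leaves little place for CpGs of that kind, and how far the choice of tiles sets this share was not tested.

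The spread between animals rose with the level. The SD between animals of a group had a median of 7.07 points over the included tiles, and the central part of its distribution, from the 10th to the 90th percentile, ran from 3.97 to 11.6 points. It rose from 5.14 points for levels of 10% to under 15% to 8.57 points for 30% to under 35%. It was higher still, 8.97 points, for tiles from 35% to under 65%. For the mirror range of 65% to under 90% it was 6.20 points, for CpG-rich low tiles 5.58 points and for tiles under 10% 1.40 points. Within the included tiles, the median SD was 8.35 points where each CpG lay from 10% to under 50% and 6.20 points where CpGs stood at both ends. Of 108832 values of single animals, 75.4% lay from 10% to under 35%, 11.8% below 10%, 12.5% from 35% to under 65% and 0.235% at 65% or more. The range over the animals of a tile had a median of 29.6 points.

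The tiles with the largest and the smallest spread were of several kinds inside. The largest SD among tiles with at least 5 CpGs and no missing value was at chr20:1423667-1423692, with 23.1 points over 5 CpGs. Its T animals ranged from 3.26% to 97.1% with a median of 24.3%, where the highest was T 16 and the next T animal had 43.1%, and its C animals from 8.89% to 52.4% with a median of 35.03%, while T+WSD animals ranged from 5.71% to 61.7% and its 5 CpG means lay between 24.8% and 31.1%. The CpGs of that tile thus stayed close to each other while the animals were far apart within a group. At chr12:125368786-125368845 the SD was 21.8 points, with CpG means between 23.6% and 37.1%. At chr11:49338337-49338377 it was 19.3 points, with CpG means further apart, between 15.4% and 47.4%. The smallest SD was at chr16:6437037-6437333, with 0.674 points around 24.3%. Here the CpG at position 6437037 had a mean of 96.6%, the next at 6437085 had 17.4%, and the 3 CpGs from 6437283 to 6437333 had means from 0.898% to 5.04%. At chr3:36204249-36204854, with an SD of 0.779 points, the first CpG had a mean of 94.5% and the other 7 lay between 0.107% and 4.45%. The third, chr12:59108346-59108775, with an SD of 1.27 points, held no border inside, since its 9 CpGs lay between 5.73% and 28.4%. Its neighbours differed, with 48.7% in the tile upstream and 3.73% in the tile downstream.

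The mean level of the 4638 tiles was compared between groups to see whether low tiles moved as a whole. The C animals had a mean of 22.7% ± 0.846 (SD, n = 6), the T animals 21.6% ± 0.724, the WSD animals 22.5% ± 1.39 and the T+WSD animals 23.1% ± 1.04. Values in C ran from 21.8% to 24.3%, T animals from 20.6% to 22.6%, WSD animals from 20.4% to 24.7% and T+WSD animals from 22.1% to 24.7%. All groups overlapped, and no test was made because the tiles were chosen by these values. Over all 100864 tiles with at least 3 CpGs, C had a mean of 61.9% ± 0.416, T of 60.9% ± 0.552, WSD of 61.4% ± 0.965 and T+WSD of 61.1% ± 0.411. The T+WSD mean was higher than the C mean in the included tiles by less than the SD of either group. Without T+WSD 12, its highest animal, it was 22.72%, beside 22.71% in C. Without C 2, the highest C animal, the C mean was 22.40%, beside 23.05% in T+WSD. In tiles under 10% the means were 2.51% in C and 2.64% in T+WSD. In CpG-rich low tiles the order was the other way, with 20.48% in C and 20.44% in T+WSD. T 16, the animal with the most missing values (13.9% of CpGs in the included tiles, against 1.2% to 6.44% in the others), also had the largest scatter around its group, 6.52 points against 5.77 points for C 2, the next. Without T 16, T against C was called in 1 included tile (background 0.00397%), in place of 2. Leaving out other single animals gave 0 to 2, such as 1 without C 1 and 0 without T 18. Without T 16, T+WSD against C was called in 63 included tiles (background 0.291%), in place of 44.

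**Figure D2:**
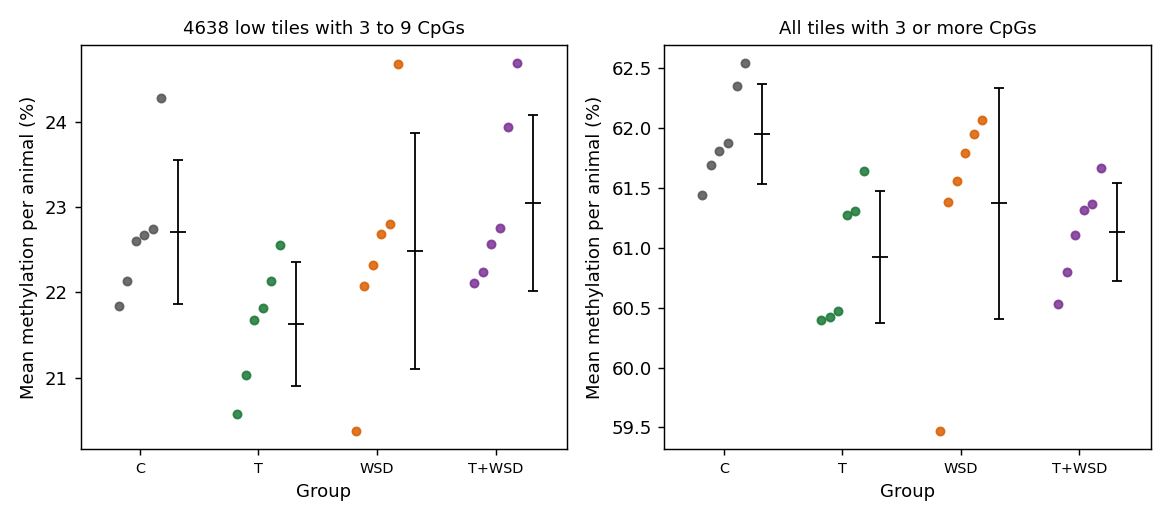
Mean methylation of each animal (vertical axes, %, not starting at 0) by group, over the 4638 included tiles (left) and all 100864 tiles with at least 3 CpGs (right). Points are animals, sorted within a group, and the bar beside them is the mean ± SD (n = 6); the groups overlap in the low tiles, where the T+WSD mean of 23.1% lies above the C mean of 22.7%.

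Differences between groups were tested per tile with limma on arcsine-transformed rates, fitted on all 100864 tiles. A tile was called at a Benjamini-Hochberg adjusted p under 0.05 with group means more than 10 points apart. For T+WSD against C, 44 included tiles were called (0.949%), against a background of 0.206% of all tiles tested. Methylation rose in 20 of these (background 0.0793%) and fell in 24 (background 0.127%). At an unadjusted p under 0.05 there were 1093 included tiles (23.6%), against a background of 10.9%. A higher mean in T+WSD than in C at that threshold was found in 583 included tiles, which is 12.6% of them against a background of 3.18%. These gains were 53.3% of the 1093 included tiles, and over all tiles the share of gains at that threshold was 29.1%. The median difference of T+WSD from C was 0.424 points over the included tiles and -0.382 points over all tiles.

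The same counts in other tiles were set beside these without a test. Tiles from 35% to under 65% had 23.7% at an unadjusted p under 0.05, with 94 called (1.15%) and 33.6% gains. Tiles from 65% to under 90% had 13.2%, with 37 called and 17.4% gains, and CpG-rich low tiles had 19.9%, with 11 called and 51.6% gains. Tiles under 10% had 5.44%, with 58.8% gains. The share at an unadjusted p under 0.05 was thus near that of tiles at 35% to under 65%, and the share of gains was near that of the other low tiles. Among the included tiles themselves, the share rose from 16.4% at levels of 10% to under 15% to 27.2% at 30% to under 35%. The share of gains fell over the same levels from 60.2% to 45.6%. The number of CpGs in a tile made less difference, with 24.99% for 3 to 4 CpGs, 22.2% for 5 to 6 and 21.9% for 7 to 9.

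The inner make-up of a tile went with the count of differences. Of the 44 called tiles, 30 were among the 2026 tiles in which each CpG lay from 10% to under 50% (1.48%), and 2 were among the 619 tiles with CpGs at both ends (0.323%). At an unadjusted p under 0.05 the shares were 32.0% and 11.3%, beside 10.9% over all tiles tested. The 1686 tiles with CpGs under 10% beside CpGs from 10% to under 50% held 10 calls (0.593%), with 18.5% at that threshold. The 307 tiles with CpGs at 50% or more beside CpGs from 10% to under 50% held 2 (0.651%), with 20.5%. No called tile was among the 166 tiles without a CpG between 10% and 50%, of which 6.02% had an unadjusted p under 0.05. The tiles with each CpG from 10% to under 50% and those with CpGs at both ends also differ in length. Their median spans were 67 bp and 245 bp, and the part of that in the counts was not tested.

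**Figure D3:**
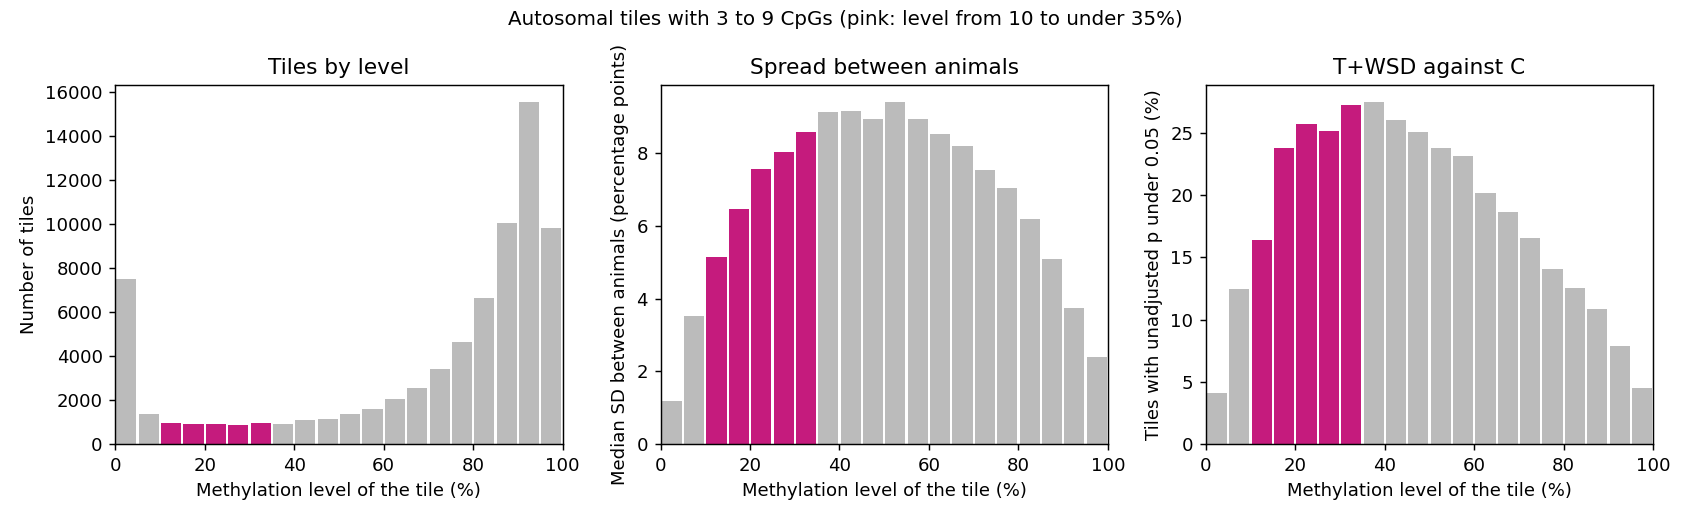
Autosomal tiles with 3 to 9 CpGs in bins of 5 points of methylation level (horizontal axes, %), as the number of tiles (left), the median SD between animals of a group in percentage points (middle) and the percentage of tiles with an unadjusted p under 0.05 for T+WSD against C (right). Pink bars are the included levels, where the last of these rose from 16.4% to 27.2%; grey bars are other levels.

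Among the 44 tiles, the animals of C and T+WSD did not overlap in 34, comprising 14 gains and 20 losses. Over all included tiles the groups did not overlap in 149 (3.21%), against a background of 1.36%. The absolute difference in the 44 tiles ran from 11.4 to 30.7 points with a median of 18.9 points. In the 20 gains the median of the C means was 19.8%, of the T means 22.8%, of the WSD means 26.4% and of the T+WSD means 37.9%. In the 24 losses these medians were 32.7%, 24.8%, 22.3% and 14.7% in the same order. The T mean was bounded by the C and T+WSD means in 42 of the 44 tiles and the WSD mean in 42, with both between in 41. Since C and T+WSD were the extremes by which the tiles were called, the place of T and WSD is a description. Of the 218 CpGs in these tiles, 216 had the direction of the tile mean, which is made of these same CpGs and was called for its size, so this is a description. A measured tile within 2 tiles was present for 23 of the 44, and it differed in the same direction in 17, against 1452 of 2545 (57.1%) over all included tiles.

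The largest gain without overlap was at chr16:4492926-4492996, with 3 CpGs over 71 bp and a level of 39.5% in the tile upstream and 0.995% in the tile downstream. C animals ranged from 13.8% to 36.6% with a median of 23.9%, and T+WSD animals from 39.95% to 75% with a median of 57.7%. T animals ranged from 8% to 34.7% (n = 5) and WSD animals from 17.5% to 41.7% (n = 4), since 10 values were missing. Every T+WSD animal lay above every C animal, as the rule for naming these tiles required. The mean rose from 24.9% ± 9.05 to 55.6% ± 12.4 (SD, n = 6), a difference of 30.7 points (limma, adjusted p = 0.0480). This call was lost in 19 of 32 alternatives (limma, adjusted p up to 0.139).

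At chr3:10050187-10050414, with 7 CpGs over 228 bp, C animals ranged from 11.5% to 28.6% with a median of 19.5%, and T+WSD animals from 28.9% to 51.8% with a median of 45.7%. T animals ranged from 21.5% to 35.4% with a median of 22.2%, and WSD animals from 17.4% to 46.5% with a median of 35.9%. C and T+WSD were separate by a narrow margin, and WSD overlapped both. The gain was 22.5 points (limma, adjusted p = 0.0415). The remaining gain named by the same rule was at chr19:45316411-45316481, described with the interaction.

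The losses were of about the same size. They were also named among called tiles without overlap, so the separation of C and T+WSD in them was set by that choice. At chr2:84975084-84975285, with 4 CpGs over 202 bp, C animals ranged from 33.1% to 64.8% with a median of 43.7%, and T+WSD animals from 15.8% to 28.7% with a median of 21.5%. T and WSD had medians of 37.2% and 29.6%. No T+WSD animal reached the lowest C animal, and methylation fell by 24.3 points (limma, adjusted p = 0.0414). Each of the 4 CpGs was lower in T+WSD, most at position 84975216, where the mean was 44.8% in C and 10.7% in T+WSD.

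At chr1:41304403-41304622, with 3 CpGs over 220 bp, C animals ranged from 27.4% to 50.2% with a median of 44.05%, and T+WSD animals from 7.38% to 27.3% with a median of 16.6%. T and WSD had medians of 28.5% and 26.7%. The highest T+WSD animal and the lowest C animal were nearly equal. Methylation fell by 24.2 points (limma, adjusted p = 0.0146).

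At chr14:49825075-49825135, with 3 CpGs over 61 bp, the tiles on both sides were unmethylated, at 1.14% and 1.25%. Values in C ran from 32.0% to 53.0% with a median of 43.0%, and T+WSD animals from 11.7% to 26.0% with a median of 20.1%. This tile was therefore a methylated patch between unmethylated neighbours and not a valley. All C animals lay above all T+WSD animals, and methylation fell by 23.6 points (limma, adjusted p = 0.0415).

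**Figure D4:**
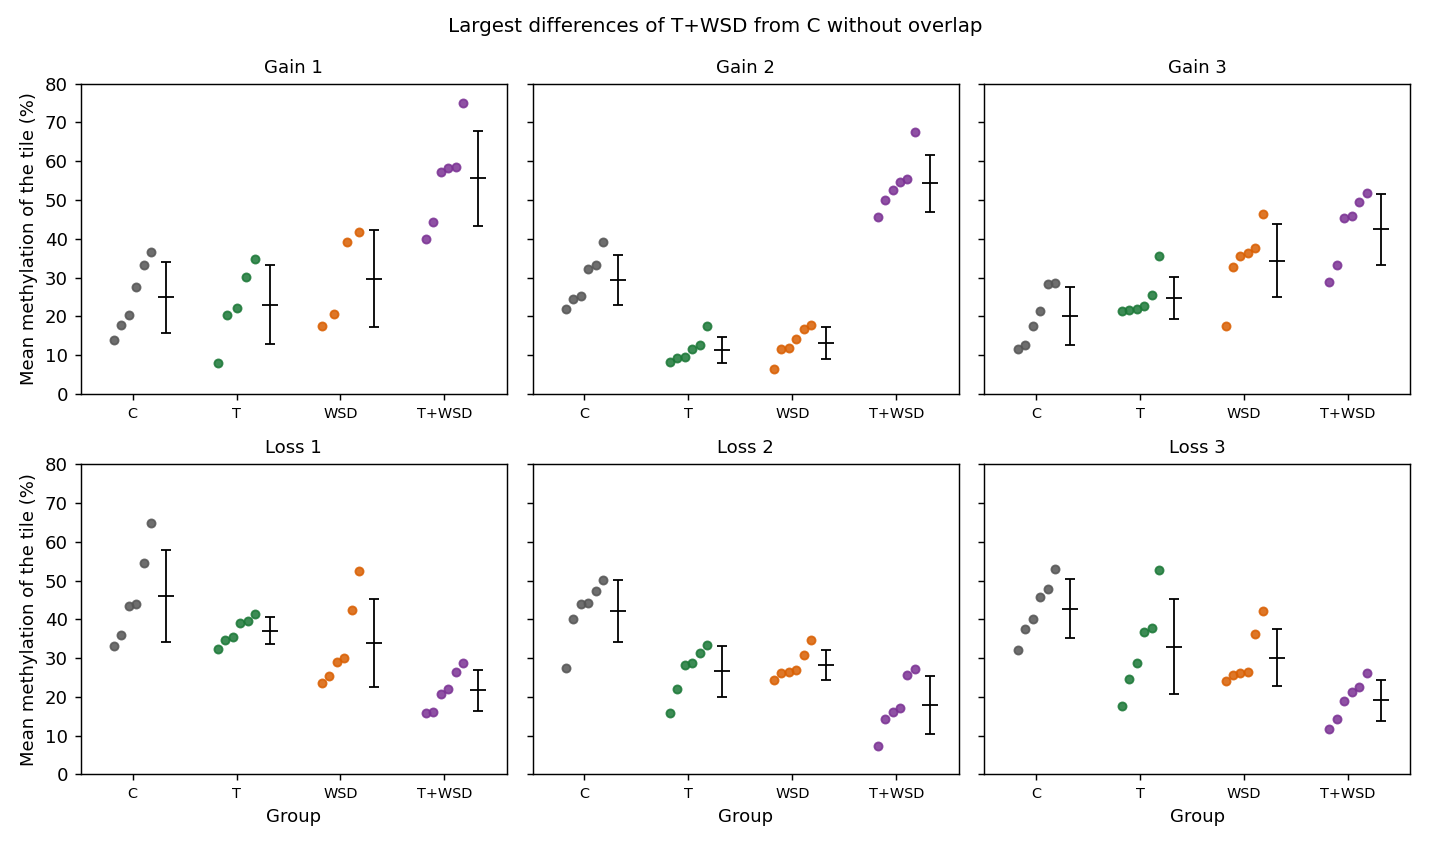
Mean methylation of 6 tiles in each animal (vertical axes, %) by group, as points sorted within a group with the mean ± SD beside them (n = 6, but 5 T and 4 WSD animals for Gain 1). Gain 1 to 3 are the tiles on chromosomes 16, 19 and 3 and Loss 1 to 3 those on chromosomes 2, 1 and 14. All 6 were named among called tiles without overlap of C and T+WSD, so that separation was set by the choice. Differences ran from 22.5 to 30.7 points for the gains and from -24.3 to -23.6 points for the losses.

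Either treatment alone gave few calls. For T against C, 2 included tiles were called, both losses, against a background of 0.00793%, and 8.67% had an unadjusted p under 0.05, against a background of 6.72%. For WSD against C, 1 was called, a loss, against a background of 0.00397%, and 13.02% had an unadjusted p under 0.05, against a background of 7.44%. These comparisons and T+WSD against C share the C animals. All 3 calls were at the tiles on chromosomes 3 and 19 that were also called for the interaction.

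The interaction asks whether the effect of T differed between diets, and is the effect of T on WSD minus that on chow. It was called in 4 included tiles, against a background of 0.0178%, with 3 positive (background 0.0139%) and 1 negative (background 0.00397%), and 8.02% of the included tiles had an unadjusted p under 0.05 (background 5.61%). In these tiles the means of C and T+WSD stood on one side of those of T and WSD. The blocks of C and T+WSD have the numbers 1 to 12 and those of T and WSD the numbers 13 to 24, so the interaction and a break between these numbers cannot be told apart.

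The largest positive value was at chr19:45316411-45316481, with 7 CpGs over 71 bp. C animals lay between 22.001% and 39.1% with a median of 28.6%, T animals from 8.16% to 17.5% with a median of 10.5%, WSD animals from 6.49% to 17.7% with a median of 13.04%, and T+WSD animals from 45.5% to 67.6% with a median of 53.6%. T and WSD lay wholly below C, and T+WSD wholly above it. The interaction was 59.2 points (limma, adjusted p = 4.31e-07), T differed from C by -17.95 points (adjusted p = 0.0458) and T+WSD differed from C by 24.9 points (adjusted p = 0.00795). WSD differed from C by -16.3 points, which missed the threshold (adjusted p = 0.0938). The call of T against C was lost in 26 of 33 alternatives (limma, adjusted p up to 0.210). The first CpG, at position 45316411, was low in all groups, with means of 3.04% (C), 1.97% (T), 2.37% (WSD) and 11.99% (T+WSD). The other 6 CpGs had means from 31.2% to 34.7% in C and from 57.2% to 66.9% in T+WSD.

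At chr3:34361417-34361443, with 4 measured positions over 27 bp and a level of 96.0% in the tile upstream, C animals ranged from 26.9% to 37.6%, T animals from 4.98% to 19.9%, WSD animals from 4.89% to 14.9% and T+WSD animals from 25.4% to 39.4%. The medians were 33.2%, 11.1%, 11.1% and 30.4%. C and T+WSD overlapped, and both lay above all T and WSD animals. The interaction was 41.1 points (limma, adjusted p = 2.39e-05), the difference of T from C was -20.2 points (adjusted p = 0.0151) and that of WSD from C was -21.7 points (adjusted p = 0.00657). Positions 34361417 and 34361418 are adjacent bases, but their group means differed. At 34361417 these were 30.3% (C), 17.3% (T), 9.12% (WSD) and 29.3% (T+WSD). At 34361418 they were 22.5%, 16.1%, 22.9% and 36.6% in the same order, so WSD was not below C there. The step between groups was widest at 34361433, with means of 50.5% (C), 5.20% (T), 5.05% (WSD) and 40.6% (T+WSD).

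At chr13:92666937-92666975, with 3 CpGs over 39 bp, C animals ranged from 29.8% to 47.2%, T animals from 8.09% to 19.6% (n = 5), WSD animals from 10.1% to 43.7% and T+WSD animals from 35.7% to 44.1%. The highest WSD animal lay among C and T+WSD, and the other WSD animals below them. The interaction was 40.2 points (limma, adjusted p = 0.0183). At chr14:111853061-111853130, with 6 CpGs over 70 bp, the order was the opposite. C animals ranged from 8.59% to 26.6%, T animals from 16.7% to 64.3%, WSD animals from 35.6% to 71.8% and T+WSD animals from 10.1% to 36.3% (n = 5). The interaction was -59.7 points (limma, adjusted p = 0.0435), and T overlapped all other groups, while WSD overlapped T+WSD narrowly and C not at all. This interaction call on chromosome 14 was lost in 21 of 31 alternatives (limma, adjusted p up to 0.119).

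**Figure D5:**
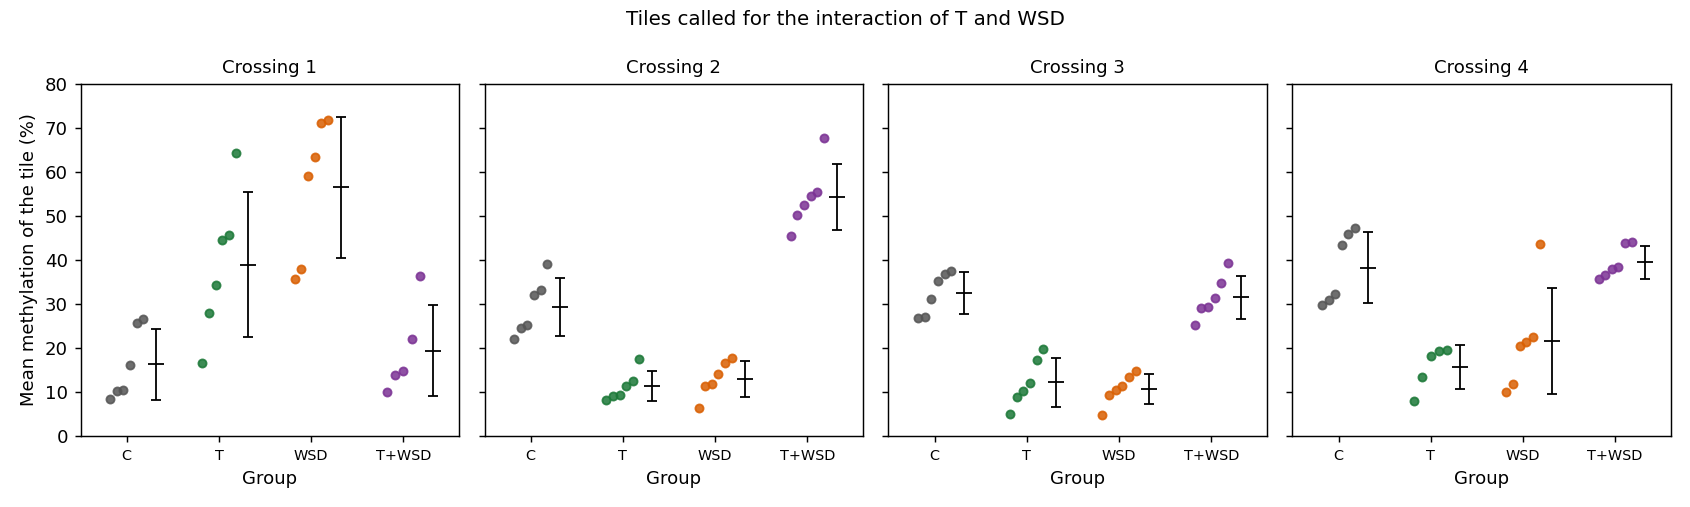
Mean methylation in each animal (vertical axis, %) by group for the 4 tiles called for the interaction, as points sorted within a group with the mean ± SD beside them (n = 6, but 5 T+WSD animals for Crossing 1 and 5 T animals for Crossing 4). Crossing 1 to 4 lie on chromosomes 14, 19, 3 and 13, with interactions of -59.7, 59.2, 41.1 and 40.2 points; the means of T and WSD lie on the same side of C in each.

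The main effects average the effect of a factor over both levels of the other. For WSD, 2 included tiles were called, against a background of 0.0129%, and both were gains (background 0.00595%), and 930 (20.1%) had an unadjusted p under 0.05, against a background of 9.42%. Gains at that threshold numbered 565, which is 12.2% of the included tiles against a background of 3.82%. They were 60.8% of the 930 tiles, beside 40.6% over all tiles, 62.5% in CpG-rich low tiles and 70.04% in tiles under 10%. The median main effect of WSD was 0.671 points over the included tiles and -0.0778 points over all tiles.

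At chr16:87680-87906, with 9 CpGs over 227 bp between tiles of 94.7% and 90.4%, the tile was a valley in methylated DNA. Values in C ran from 16.4% to 29.0% with a median of 19.2%, T animals from 16.003% to 26.5% with a median of 23.8%, WSD animals from 14.8% to 41.6% with a median of 32.4%, and T+WSD animals from 37.5% to 47.1% with a median of 41.3%. The chow groups overlapped each other, and WSD overlapped both of them and the lower T+WSD animals. The main effect of WSD was 14.4 points (limma, adjusted p = 0.0362), and T+WSD differed from C by 20.8 points (adjusted p = 0.0169). With only the CpGs measured in all animals the main effect was 8.42 points and was not called (limma, adjusted p = 0.329), and over all alternatives its adjusted p ran from 0.00144 to 0.329.

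At chr16:38861788-38861976, with 7 CpGs over 189 bp, C animals ranged from 4.66% to 10.9% with a median of 9.36%, T animals from 9.98% to 14.2% with a median of 11.001%, WSD animals from 6.58% to 23.4% with a median of 13.6%, and T+WSD animals from 24.5% to 41.3% with a median of 26.5%. T+WSD lay above all other animals. The main effect of WSD was 11.7 points (limma, adjusted p = 0.0408), and T+WSD differed from C by 20.2 points (adjusted p = 0.00795). The call of the main effect was lost in 19 of 32 alternatives (limma, adjusted p up to 0.114). Position 38861840 had the highest mean in T+WSD, with 52.4% against 9.47% in C.

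For the main effect of T, no included tile was called by limma, against a background of 0%, although 497 had an unadjusted p under 0.05 (10.7%, against a background of 7.64%). The smallest p was at chr16:42631621-42631695, with 8 CpGs over 75 bp between tiles of 18.5% and 86.2%. C animals ranged from 25.2% to 41.1% with a median of 38.5%, T animals from 18.1% to 33.9% with a median of 23.8%, WSD animals from 17.2% to 39.2% with a median of 24.6%, and T+WSD animals from 8.03% to 16.6% with a median of 13.9%. T+WSD lay below all other animals. The main effect of T of -12.4 points did not pass the test (limma, adjusted p = 0.362, from an unadjusted value of 2.43e-05), whereas T+WSD differed from C by -23.1 points and was called (adjusted p = 0.00795).

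At single CpGs, fitted with limma over all 841143 CpGs of the table, 14 CpGs of the included tiles were called for T+WSD against C (0.0609%, against a background of 0.0069%), with 5 gains. The interaction was called at 13 CpGs (background 0.0174%), all with a positive value. T against C was called at 3 CpGs (background 0.00559%) and WSD against C at 3 (background 0.00559%), all losses. Neither main effect was called by limma at any CpG of the included tiles (background 0.000357% for WSD and 0% for T), although 14.6% had an unadjusted p under 0.05 for WSD, beside 7.07% of all CpGs, and 8.59% for T, beside 5.89%. At that threshold, T+WSD differed from C at 15.7% of the CpGs of the included tiles and at 7.61% of all CpGs.

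The call counts leaned on single animals, whereas the share of tiles at an unadjusted p under 0.05 moved less. Without C 1, 3 included tiles (0.0647%) were called for T+WSD against C, beside 10 of all tiles (0.00991%). Without C 2 there were 71 (1.53%), beside 321 of all tiles (0.318%). Without each other animal the counts that moved by more than 1.5 times were 6 without C 3, 19 without C 4, 15 without C 5, 20 without T 17, 15 without WSD 23, 28 without T+WSD 7, 9 without T+WSD 8, 6 without T+WSD 9, 14 without T+WSD 10 and 19 without T+WSD 12. The counts over all tiles for these same omissions ran from 26 without C 3 to 134 without T+WSD 7, beside 208 with all animals. Over all 33 settings, the share of included tiles at an unadjusted p under 0.05 lay between 17.5% and 27.3%, and that of all tiles between 8.86% and 12.8%. The share of gains in it lay between 50.1% and 56.2%.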

How the data were processed

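Omental WAT of 24 animals was profiled by reduced-representation bisulfite sequencing, 1 library per animal. Per the submitters' processing notes, the authors used Trim Galore 0.4.2, FastQC 0.11.5 and Bismark 0.16.1, with build rheMac8. The deposited values are percent methylation per CpG and animal. They are unscaled, and read numbers were not used here, so depth beyond the authors' coverage minimum is unknown and no read-based interval was computed.

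CpGs were averaged per 1 kb tile and animal, missing values left out. limma 3.58.1 (R 4.3.3) was fitted to the arcsine of the square root of tile rates, for 100864 tiles with at least 3 CpGs, all 4 groups in one fit and 6 contrasts. A call needed a Benjamini-Hochberg adjusted p under 0.05 and a difference over 10 points. The arcsine fit was repeated in numpy 2.4.6 for the alternatives, with identical calls, and the procedure was tested on simulated data. Tiles with a missing animal were fitted on the remaining animals. p-values measure the spread between these animals.

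The tiles, the rule and the lists were chosen with earlier results of these data known. Named regions were, per contrast, all called tiles up to 6, otherwise the 3 largest gains and losses without overlap, or the smallest p if none was called. Added to these were the tiles with the most extreme SD (at least 5 CpGs) and within-tile range (at least 7 CpGs for the smallest), complete in all animals. The kinds of inner make-up were added after the values had been seen. Alternatives changed the transformation, the groups fitted, missing values, the prior, thresholds, tile borders and the omission of each animal. Gene annotation, sequences, motifs and cell type marker genes were not analysed here, because no genome of build rheMac8 was used.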

Additional observations from a re-analysis of the deposited data

Results flagged for a closer look

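In 12 of 108 groups of values examined, 1 animal lay far from the others of its group. A rate of 1 in 20 would give 5.4. The tiles examined were named for their calls, p-values, spread or range and share the same animals. That number is therefore no valid chance expectation for them, and an excess was not tested. C 2 had a mean level of 24.3% over the included tiles, against 22.7% for the next C animal. T 16 had a scatter of 6.52 points around its group, against 5.02 for the next T animal, and a score of 449.8 on the first principal component, against -40.4 for the next, and it also had the most missing values.

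Single tiles with 1 distant animal were chr3:10050187-10050414, where T 16 had 35.4% and the next T animal 25.5%, chr13:92666937-92666975, where WSD 20 had 43.7% and the next 22.5%, and chr16:38861788-38861976, where T+WSD 8 had 41.3% and the next 29.6%. At chr20:1423667-1423692 WSD 24 had 41.2% and the next 21.1%. At chr1:67829126-67829194 C 5 had 37.1% and the next 26.4%, and at chr18:67184520-67184681 T+WSD 12 had 34.5% and the next 29.3%. Low animals were C 5 with 22.8% at chr16:6437037-6437333, T+WSD 9 with 29.6% at chr11:67553340-67553630 and C 6 with 30.3% at chr1:22487389-22487978, where the next animals had 23.5%, 31.8% and 33.3%.

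The effect of T differed between diets by limma's interaction term in 4 tiles. The interaction was 40.2 points at chr13:92666937-92666975, -59.7 points at chr14:111853061-111853130, 59.2 points at chr19:45316411-45316481 and 41.1 points at chr3:34361417-34361443. It cannot be told apart from a break between the animals numbered 1 to 12 and 13 to 24.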

How the results depend on the processing

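The counts of included tiles called were small. They moved by more than 1.5 times in 17 of 33 settings for T+WSD against C, 25 of 33 for T against C, 23 of 32 for the main effect of WSD, 3 of 33 for WSD against C, 1 of 32 for the interaction and 0 of 32 for the main effect of T; the cause was not tested. T+WSD against C gave 5 with a log2 ratio (background 0.0198%), 5 with only the compared groups in the fit (background 0.0327%) and 13 with a prior trend (background 0.0516%). At an adjusted p under 0.1 it gave 131 (2.82%, background 0.652%). With only CpGs measured in all animals, 2949 included tiles were still tested. Of these, 81 (2.75%) were called, against a background of 0.636% in that setting. T against C gave 1 with untransformed rates and with a prior trend, and 0 with a log2 ratio, the arcsine per CpG or only the compared groups. WSD against C gave 0 with a log2 ratio or only the compared groups and 3 at an adjusted p under 0.1. The main effect of WSD gave 0 with a log2 ratio or the arcsine per CpG, 6 with only CpGs measured in all animals and 11 at an adjusted p under 0.1, and the interaction gave 2 with only such CpGs. Leaving out each animal gave 0 to 2 for T against C, 1 to 1 for WSD against C, 3 to 71 for T+WSD against C, 3 to 5 for the interaction, 0 to 0 for the main effect of T and 0 to 9 for that of WSD (9 without WSD 24, 5 without T+WSD 7, 4 without T+WSD 11, and 3 or fewer otherwise). The mean level ran from 22.4% to 22.9% in C, 21.4% to 21.8% in T, 22.1% to 22.9% in WSD and 22.7% to 23.2% in T+WSD. Levels of 15% to under 30% left 2690 tiles, and tile borders moved by 500 bases gave 4587, for which calls were not computed. Tiles with at least 5 CpGs had a median within-tile range of 28.2 points, and 9.66% of tiles lay within 5 tiles of a CpG-dense low tile. Among the named calls, the interactions at chr19:45316411-45316481 and chr3:34361417-34361443 passed in 32 of 32 settings. T+WSD against C passed in 31 of 33 settings at chr19:45316411-45316481 and 30 of 32 at chr1:41304403-41304622. T against C passed in 7 of 33 at chr19:45316411-45316481 and 27 of 33 at chr3:34361417-34361443, where WSD against C passed in 31 of 33. The interaction at chr13:92666937-92666975 passed in 30 of 31. T+WSD against C passed in 22 of 33 at chr2:84975084-84975285, in 20 of 33 at both chr3:10050187-10050414 and chr14:49825075-49825135, and in 13 of 32 at chr16:4492926-4492996, and at chr14:111853061-111853130 the interaction in 10 of 31. The main effects of WSD passed in 15 of 32 at chr16:87680-87906 and 13 of 32 at chr16:38861788-38861976. No direction was reversed in these settings. No paired analysis was possible because the groups share no replicate number. Read depth per CpG is unknown, so the counting error within these values cannot be given.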
